A study of Mus musculus with 14 samples.

Results

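The regions described here are islands found with a Gfi1 antibody in mouse neurospheres. They were called in both Gfi1 antibody libraries and were free of every tumour histone mark analysed. An island is a run of enriched windows joined across short gaps. The members were chosen by where the called regions lie: they are NSCas9Gfi1 islands that share at least 1 bp with an NSSuz12F2Gfi1 island. They overlap no H3K27me3, H3K27ac or H3K4me3 region of either tumour line and no island found with the Cas9 antibody. They numbered 29350 of 63177 NSCas9Gfi1 islands, or 46.5%, and covered 163.6 Mb of the 367.9 Mb in that list. On the other side they met 32509 of 67079 NSSuz12F2Gfi1 islands, or 48.5%.

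The neurospheres, floating cultures of neural cells, were p53-/-;p18-/- and carried the labels Suz12F2 or Cas9, whose F2 is not explained. The tumour lines came from Myc-driven medulloblastoma on the same p53-/-;p18-/- background. One of them also lacked Ezh2 (Ezh2KO, genotype p53-/-;p18-/- ;Ezh2-/-) and the other was labelled Cas9. Per the growth protocol in the labels, tumorsphere cells were infected with retroviral vectors, sorted for their fluorescent reporters and transplanted into the brains of immunodeficient CD-1 nu/nu mice. The 3 Cas9 antibody lists came from neurospheres labelled Suz12F1, Suz12F2 and U6. Ages and passage numbers are not given in the labels. With 1 library in each group there is no replicate error to give, and no test across samples was possible. Intervals are Wilson 95% intervals, or binomial intervals of a median, and cover counting error only. Islands of 1 library are not independent samples of a condition. The depth of the libraries is unknown, and all positions are in build mm9.

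Gfi1 is a zinc finger transcriptional repressor that recruits histone-modifying enzymes to DNA. It is known for its roles in blood stem cells and inner ear hair cells, and in some medulloblastomas it is switched on by enhancers moved next to it. H3K4me3 marks promoters, H3K27ac marks active promoters and enhancers, and H3K27me3 is laid down by Polycomb repressive complex 2, of which Ezh2 and Suz12 are subunits. No genome or gene annotation of build mm9 was used here, so the islands carry no gene names and no sequence is shown, and distance from promoters was read from tumour H3K4me3 peaks.

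The tumour lists set aside different numbers of shared islands. Of all NSCas9Gfi1 islands, 48093 (76.1%) were overlapped by an NSSuz12F2Gfi1 island, and members were 61.0% (60.6 to 61.5) of these shared islands. Without regard to sharing, 67.6% of NSCas9Gfi1 islands had neither a tumour mark nor a Cas9 antibody island. H3K27me3 lay in 2710 shared islands in the Ezh2KO line and 9711 in the Cas9 line, H3K4me3 in 9075 in the Ezh2KO line and 8910 in the Cas9 line, and H3K27ac in 6946 in the Ezh2KO line and 5517 in the Cas9 line. The lists differ in the sequence they cover, with 18.6 Mb of H3K27me3 in the Ezh2KO line and 71.4 Mb in the Cas9 line, against 8.57 Mb of H3K4me3 in the Ezh2KO line and 9.74 Mb in the Cas9 line. By tumour, 1248 shared islands outside Cas9 antibody islands had a mark in the Ezh2KO line alone, 6255 in the Cas9 line alone and 8261 in both. The H3K27me3 list of the Cas9 line alone set aside 5941 islands that no other list touched, against 1028 for the H3K27me3 list of the Ezh2KO line. Cas9 antibody islands lay in 2979 shared islands, and 560 of these had no tumour mark. The rule made these counts, so they describe the selection and support nothing.

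Members had a middling length. Their median was 4200 bp (quartiles 2600 and 6800 bp), against 5000 bp (2800 and 9800 bp) for the other 18743 shared islands, those with a mark or a Cas9 antibody island. A further comparison set was the 13331 unshared islands, which had no tumour mark, no Cas9 antibody island and no NSSuz12F2Gfi1 overlap, and these had a median of 3000 bp (2000 and 4000 bp). Islands of 20 kb or more made up 1.91% (1.76 to 2.08) of members, 0.0225% (0.00765 to 0.0661) of unshared islands and 8.58% (8.19 to 8.99) of other shared islands, beside 3.44% of the whole NSCas9Gfi1 list. The members were thus not the broad end of the list. Long islands meet a mark or another island more often by their length alone, so the rule itself acted on length.

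The share of members among shared islands was highest at intermediate length. It was 54.7% under 1 kb, 67.1% (66.4 to 67.7) from 2 to 5 kb, 50.2% (48.9 to 51.4) from 10 to 20 kb and 25.9% (24.1 to 27.8) at 20 kb or more. In the 2 to 5 kb class lay 46.5% of all members, and 29.2% measured 5 to 10 kb.

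The authors' score, a whole number whose meaning the files do not state, ranked members near the middle of the NSCas9Gfi1 list. Their median score was 160, at percentile 53.7 (53.4 to 54.4), against percentile 25.7 (25.7 to 26.3) for unshared islands and 68.1 (67.6 to 68.9) for other shared islands. The top 10% of scores held 7.84% (7.54 to 8.16) of members, 0.0975% (0.0570 to 0.167) of unshared islands and 21.3% (20.7 to 21.9) of other shared islands. In the top 1% were 77 members (0.262% of members), 555 other shared islands (2.96% of that set) and 0 unshared islands.

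The score grew with length, and members stayed between the comparison sets within length classes. From 2 to 5 kb the median score per kb was 39.3 for members (quartiles 35.3 and 44.1), 34.6 for unshared islands (31.7 and 38) and 45.6 for other shared islands (39.5 and 54.2). From 10 to 20 kb the median was 40.2 for members, 32.4 for unshared islands and 43.8 for other shared islands. In all 5 length classes below 20 kb the members' median score per kb lay above that of unshared islands and below that of other shared islands. The quartile ranges overlapped in each class between members and other shared islands. At 20 kb or more there were 3 unshared islands, and they are not read. Among other shared islands, those with H3K27me3 and no active mark had a median of 41.8 per kb and those with an active mark 50.8, beside 40.0 for all members.

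**Figure D1:**
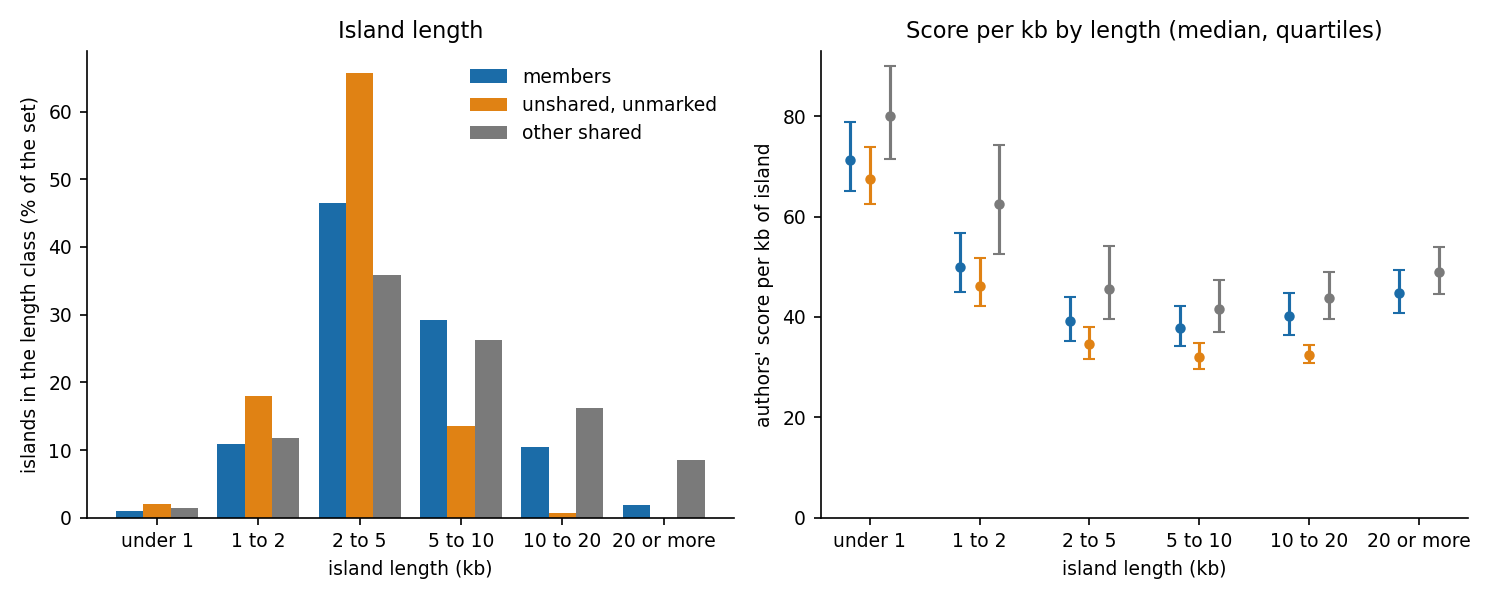
Left, share of each set of NSCas9Gfi1 islands in 6 length classes (kb), for 29350 members, 13331 unshared unmarked islands and 18743 other shared islands. Right, authors' score per kb by length class, with points for medians and bars for quartiles (sets with under 20 islands left out); members' medians lie between those of the other sets below 20 kb.

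Of the NSSuz12F2Gfi1 islands that met members, here called partners, the rule used only the overlap of at least 1 bp. Longer islands meet a member more often, so the rule acted on their extent too, and the values here are descriptions. A single such partner was found for 84.9% (84.5 to 85.3) of members, 2 partners for 12.4% and 3 or more for the rest. Partners covered a median of 80.9% (80.0 to 81.3) of a member, against 86.0% (85.7 to 86.5) of another shared island. Every base was covered in 24.6% (24.1 to 25.1) of members, 25.4% (24.8 to 26.1) of other shared islands and 19.0% of the whole NSCas9Gfi1 list. The whole list is lower by construction, since it includes unshared islands, which have no cover. At least 50% was covered in 82.5% of members and 89.0% of other shared islands.

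Within single pairs the islands of Suz12F2 cells were mostly the shorter ones. There were 20802 members with 1 partner that itself met 1 NSCas9Gfi1 island. In these pairs the median length was 3000 bp in NSSuz12F2Gfi1 and 3800 bp in NSCas9Gfi1, with a median ratio of 0.857. The NSSuz12F2Gfi1 island was shorter in 63.1% (62.5 to 63.8) of pairs, longer in 27.2% and of equal length in 9.63%. In 54.4% of pairs it lay inside the member, and the centres were a median of 400 bp apart. Across the 20802 pairs the Spearman correlation was 0.61 for length, 0.64 for score and 0.48 for score per kb. The pairs share their position, and length and score rise together, so these values are a description. NSSuz12F2Gfi1 islands were shorter over the whole lists too, with a median of 3000 bp against 4000 bp for NSCas9Gfi1.

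**Figure D2:**
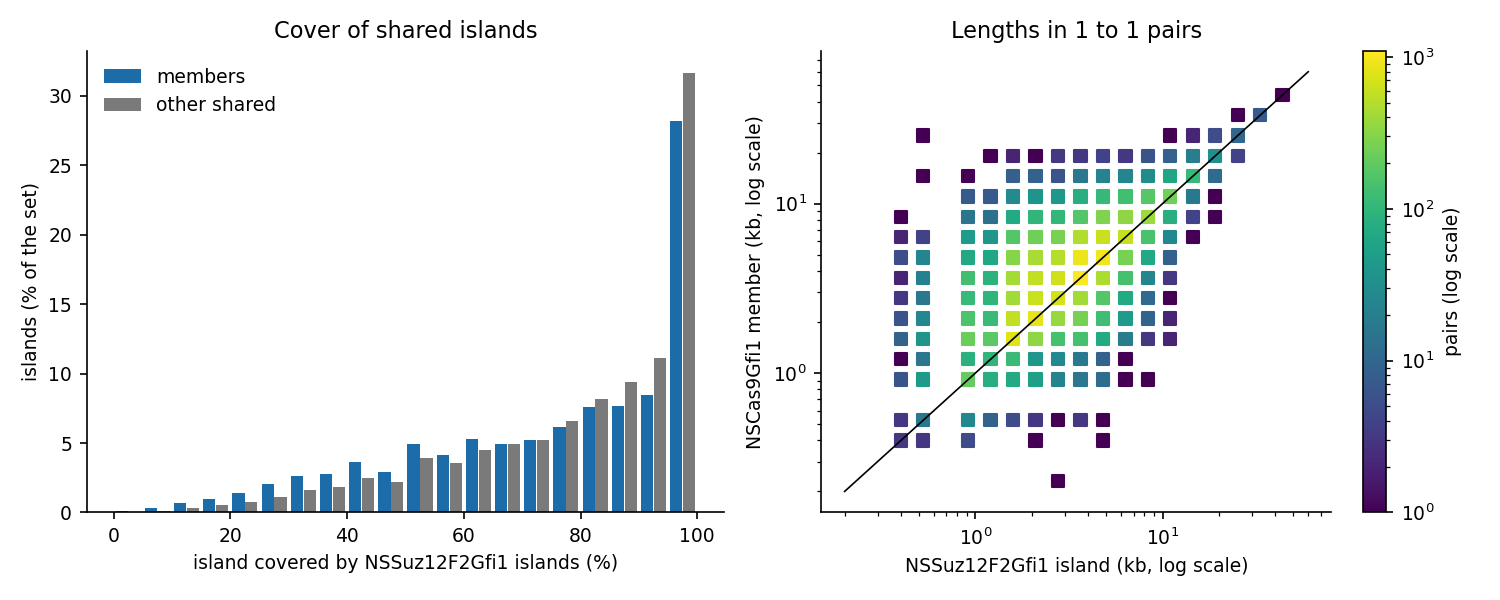
Left, percent of each island covered by NSSuz12F2Gfi1 islands, in steps of 5 points, for members and other shared islands (percent of each set); 24.6% of members were covered whole. Right, lengths (kb, log scales) of the NSSuz12F2Gfi1 island and the NSCas9Gfi1 member in 20802 pairs, coloured by number of pairs (log scale), with the line of equal length; more pairs lie above the line, where the NSSuz12F2Gfi1 island is shorter.

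Partners of members seldom reached into marked regions. Of the 32509 partners, 1153 overlapped a tumour mark, or 3.55% (3.35 to 3.75), beside 32.3% of all NSSuz12F2Gfi1 islands. Much of this gap follows from the rule, since a partner lies mostly over unmarked sequence. H3K4me3 was met by 1.82% of partners in the Ezh2KO line and 1.84% in the Cas9 line, and H3K27me3 by 0.415% in the Ezh2KO line and 1.80% in the Cas9 line. Seen from the members, 4.26% (4.04 to 4.50) had a partner that reached a mark which the member itself did not.

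Members lay nearer to H3K4me3 peaks of the tumour than unshared islands did. The distance from edge to edge of the nearest H3K4me3 peak of either tumour had a median of 41.2 kb (40.4 to 41.9) for members and 65.4 kb (63.9 to 67.7) for unshared islands. The quartiles were 16.3 and 95.7 kb for members, and 24.7 and 161.0 kb for unshared islands. Both sets exclude overlap with a peak by the rule, and they differ by whether an NSSuz12F2Gfi1 island was there, which is itself more frequent near peaks, as the cover values given further on show. Within 50 kb of a peak lay 55.9% of members, against 27.6% of points placed every 2 kb outside marks and Cas9 antibody islands. Points have no length, whereas islands were measured from their edges. More than 50 kb away lay 44.1% of members and 57.3% of unshared islands. More than 10 kb from any peak lay 84.1% (83.7 to 84.5) of members and 89.3% (88.7 to 89.8) of unshared islands. Beyond 100 kb lay 23.8% (23.3 to 24.3) of members and 38.0% (37.2 to 38.9) of unshared islands, and beyond 500 kb 1.54% of members and 3.97% of unshared islands. The median distance of members was 43.4 kb from peaks of the Ezh2KO line and 43.4 kb from those of the Cas9 line.

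The gap held within length classes. From 2 to 5 kb the median distance was 43.9 kb for members and 64.2 kb for unshared islands, and from 5 to 10 kb it was 38.0 kb for members and 56.0 kb for unshared islands. Members of 20 kb or more had a median of 27.1 kb. The nearest H3K27ac peak was a median of 54.5 kb from members and 88.9 kb from unshared islands, and the nearest H3K27me3 region 53.0 kb from members and 69.0 kb from unshared islands. The nearest Cas9 antibody island was 110.2 kb (108.4 to 112.2) from members and 136.0 kb (132.6 to 140.2) from unshared islands.

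Among unmarked islands, the share called in both Gfi1 antibody libraries fell with distance from H3K4me3. Of the 42681 islands with no tumour mark and no Cas9 antibody island, 68.8% were shared and so were members. Within 5 kb of a peak the share was 77.6% (76.1 to 79.1), from 20 to 50 kb 72.8% (71.9 to 73.6), from 100 to 200 kb 62.6% (61.5 to 63.8) and at 500 kb or more 46.1% (43.0 to 49.2). Members near peaks also scored higher, with a median percentile of 61.2 within 5 kb and 24.5 at 500 kb or more. Unshared islands did so too, with 31.2 within 5 kb and 17.9 at 500 kb or more. Members near peaks were longer, with medians of 4800 bp within 5 kb and 2400 bp at 500 kb or more. The members' median score per kb was 40.7 within 5 kb, 39.4 from 200 to 500 kb and 40.6 at 500 kb or more, over islands of unequal length. The direction differed between length classes, within which length was not fully held. Members under 2 kb had a median score per kb of 51.1 within 10 kb of a peak and 53.9 at 500 kb or more. Their median length was 1600 bp and 1400 bp at these distances. Score per kb was higher in the shorter of them, with medians of 71.3 under 1 kb and 50.0 from 1 to 2 kb. The rise in this class can thus not be told apart from length. At these distances members of 2 to 5 kb had 39.5 and 38.2, and those of 5 to 10 kb had 38.6 and 33.7. The value of 33.7 came from 56 members. Members of 10 kb or more had 42.3 within 10 kb and 39.1 from 100 to 500 kb.

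The amount of sequence in NSSuz12F2Gfi1 islands moved in the same direction. At points placed every 2 kb outside marks and Cas9 antibody islands, 33.4% lay in an NSSuz12F2Gfi1 island where the peak was within 5 kb, 7.35% from 100 to 200 kb and 0.338% at 500 kb or more. The part of this cover in the fall of the shared share was not tested. Members themselves held 4.38% of these points within 5 kb, 16.0% from 10 to 20 kb, 6.32% from 100 to 200 kb and 0.237% at 500 kb or more. All NSCas9Gfi1 islands held 37.3% within 5 kb, 29.3% from 5 to 10 kb and 10.4% from 100 to 200 kb, and the rule removes those that reach a mark, which lowers the members' value near peaks.

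**Figure D3:**
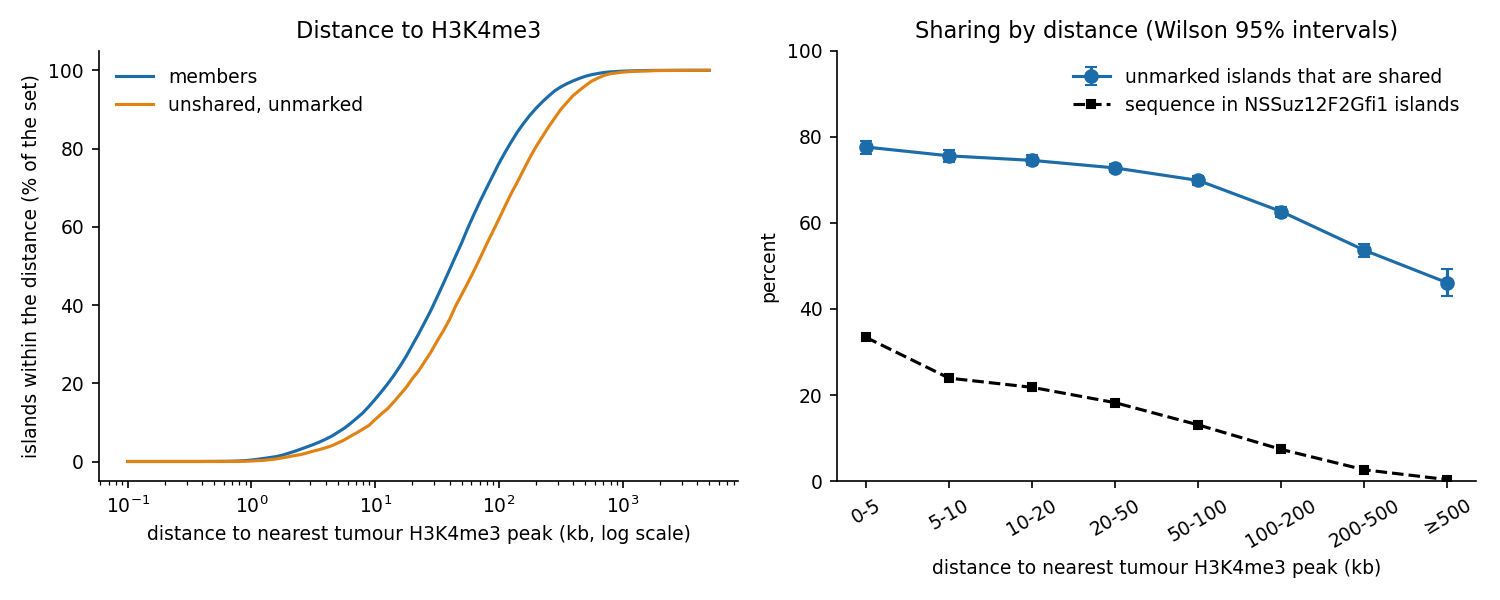
Left, cumulative percent of members and of unshared unmarked islands within a distance (kb, log scale) of the nearest tumour H3K4me3 peak; the median is 41.2 kb for members and 65.4 kb for unshared islands. Right, percent of unmarked NSCas9Gfi1 islands that are shared, by distance (kb), with Wilson 95% intervals, and the percent of unmarked sequence lying in NSSuz12F2Gfi1 islands; both fall with distance, and the shared share is 77.6% within 5 kb and 46.1% at 500 kb or more.

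The shared share was lower from 100 to 500 kb than within 10 kb in each score quartile and each length class. In the lowest score quartile the shared share was 56.3% (53.7 to 58.9) within 10 kb of a peak and 42.5% (40.9 to 44.0) from 100 to 500 kb. In the highest quartile it was 98.1% (97.3 to 98.7) within 10 kb and 92.0% (90.4 to 93.3) from 100 to 500 kb. For islands of 2 to 5 kb the values at these distances were 67.8% (66.1 to 69.4) and 52.5% (51.3 to 53.7), and for those of 10 kb or more 98.7% (97.7 to 99.3) and 93.9% (91.5 to 95.6). High scores and long islands were near the ceiling of 100%, so falls in points cannot be compared between the classes. The unshared share was 1.88% within 10 kb and 8.00% from 100 to 500 kb in the highest quartile, and 43.7% within 10 kb and 57.5% from 100 to 500 kb in the lowest. The third quartile was level over the first 2 classes, at 82.1% within 10 kb and 82.9% from 10 to 50 kb. The score quartiles were farther apart than the distance classes, since 49.4% of unmarked islands in the lowest quartile were shared and 96.1% in the highest.

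**Figure D4:**
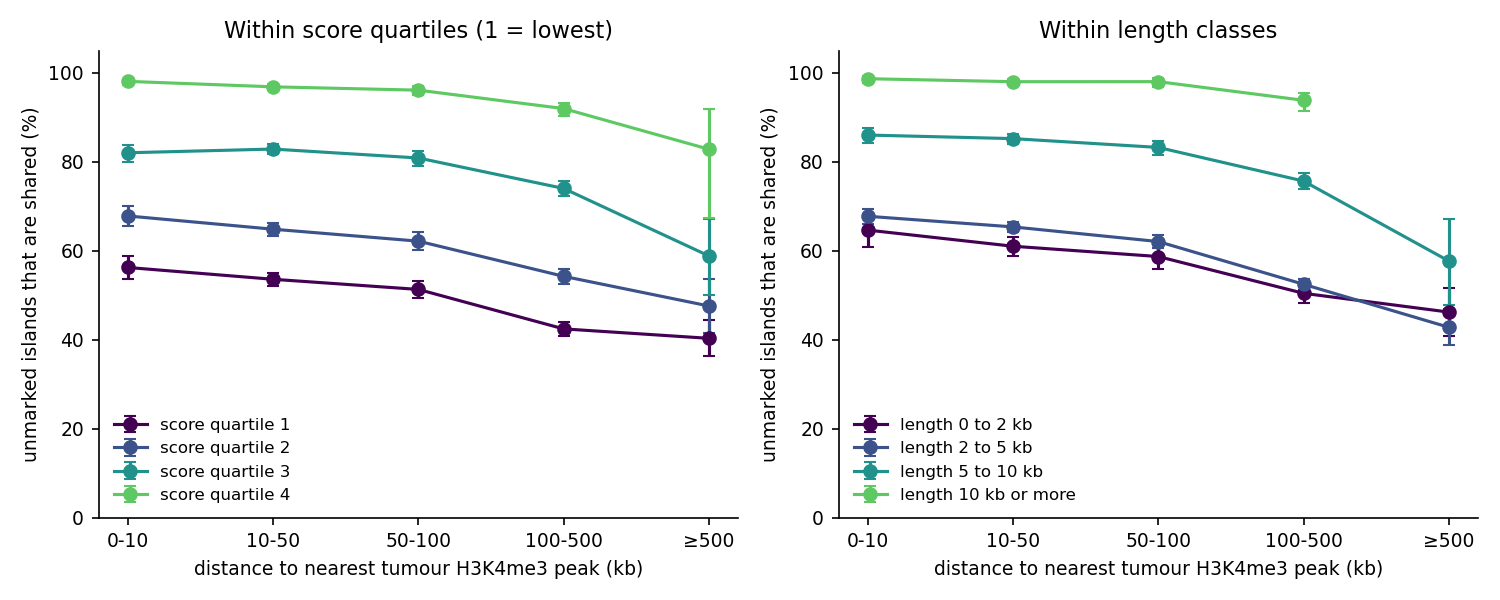
Percent of unmarked NSCas9Gfi1 islands that are shared, by distance to the nearest tumour H3K4me3 peak (kb), with Wilson 95% intervals, within 4 score quartiles (left, 1 the lowest) and 4 length classes (right; classes with under 20 islands left out). Lines of higher score and of 5 kb or more lie higher, and each line is lower from 100 to 500 kb than within 10 kb.

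The kind of the nearest peak differed little between members and unshared islands. It carried H3K27ac in the Ezh2KO line for 63.2% (62.7 to 63.8) of members and 63.6% (62.8 to 64.4) of unshared islands, and in the Cas9 line for 47.7% of members and 48.1% of unshared islands. Over all 15236 H3K4me3 peaks of both tumours joined, the share was 57.8% for H3K27ac of the Ezh2KO line and 46.5% for that of the Cas9 line. Peaks acetylated in the Ezh2KO line alone were nearest to 17.5% (17.1 to 17.9) of members and 17.2% (16.5 to 17.8) of unshared islands, and they were 14.1% of all peaks. Peaks in H3K27me3 regions of the Cas9 line were nearest to 19.6% (19.2 to 20.1) of members and 21.4% (20.8 to 22.2) of unshared islands, and they were 15.7% of all peaks. Where the nearest peak was within 50 kb, it lay in an NSCas9Gfi1 island itself for 90.5% (90.1 to 91.0) of members and 87.1% (86.2 to 88.0) of unshared islands, beside 86.4% of all peaks. In all, 8366 of the 15236 peaks were the nearest peak of a member, with a median of 2 and at most 40 members each.

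Members, like the other sets, came in groups. The gap to the next member had a median of 12.4 kb (12.0 to 12.6), against 54.2 kb (52.4 to 56.0) for unshared islands and 21.8 kb (20.8 to 22.6) for other shared islands. The sets differ in size, which alone changes the gaps. In the order of the NSCas9Gfi1 list, the island after a member was again a member in 55.8% (55.2 to 56.4) of cases, beside the 46.5% that members make of the list. After an unshared island it was a member in 42.9% (42.1 to 43.8) of cases, and after another shared island in 36.6% (36.0 to 37.3). The comparison sets also followed themselves: the next island was unshared after 32.5% (31.7 to 33.3) of unshared islands, which make 21.1% of the list, and other shared after 43.8% (43.1 to 44.5) of other shared islands, which make 29.7%. The longest unbroken run held 26 members.

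Joined across gaps of up to 50 kb, the members formed 6714 chains, of which 2883 held 1 member, 767 held 10 to 49 and 21 held 50 or more. Chains of 10 or more took in 50.1% of all members. The chain with most members, 85, was on chromosome 5 from 149064801 to 150312800. Chromosome 9 held the next, of 82 members from 60672401 to 61747800 and of 78 members from 120428201 to 121390000. Members covered 46.7% of the first of these 3 spans and 49.1% of each of the others. The second chain took in 2 tumour H3K4me3 peaks over 1075 kb, and the first and the third 10 each. Islands that were no members lay there too, as the 3 spans held 121, 112 and 91 NSCas9Gfi1 islands.

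In bins of 1 Mb, members were more numerous where H3K4me3 peaks were denser, up to 11 to 20 peaks a bin. Of 2547 bins, 648 held no member, the median was 5 and the highest 70, and the 10% of bins with most members held 36.8% of them. The fullest bins lay on chromosome 2 from 168000001 to 169000000 with 70 members, chromosome 9 from 61000001 to 62000000 with 67 and chromosome 5 from 149000001 to 150000000 with 62. They held 98, 92 and 94 NSCas9Gfi1 islands of any kind, and 10, 8 and 10 H3K4me3 peaks. Autosomal bins with no peak had a median of 0 members, those with 6 to 10 peaks 17, those with 11 to 20 peaks 26 and those with 21 or more 26. Other shared islands went on rising over these classes, with medians of 0, 7, 16 and 27. The rule takes islands that meet a peak out of the members and puts them among the other shared islands, so it acts on both trends. Across the 2387 autosomal bins the Spearman correlation of members was 0.76 with H3K4me3 peaks, 0.80 with unshared islands and 0.84 with other shared islands. The counts of members and of other islands come from the same library and the same bins, so these values are descriptions.

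**Figure D5:**
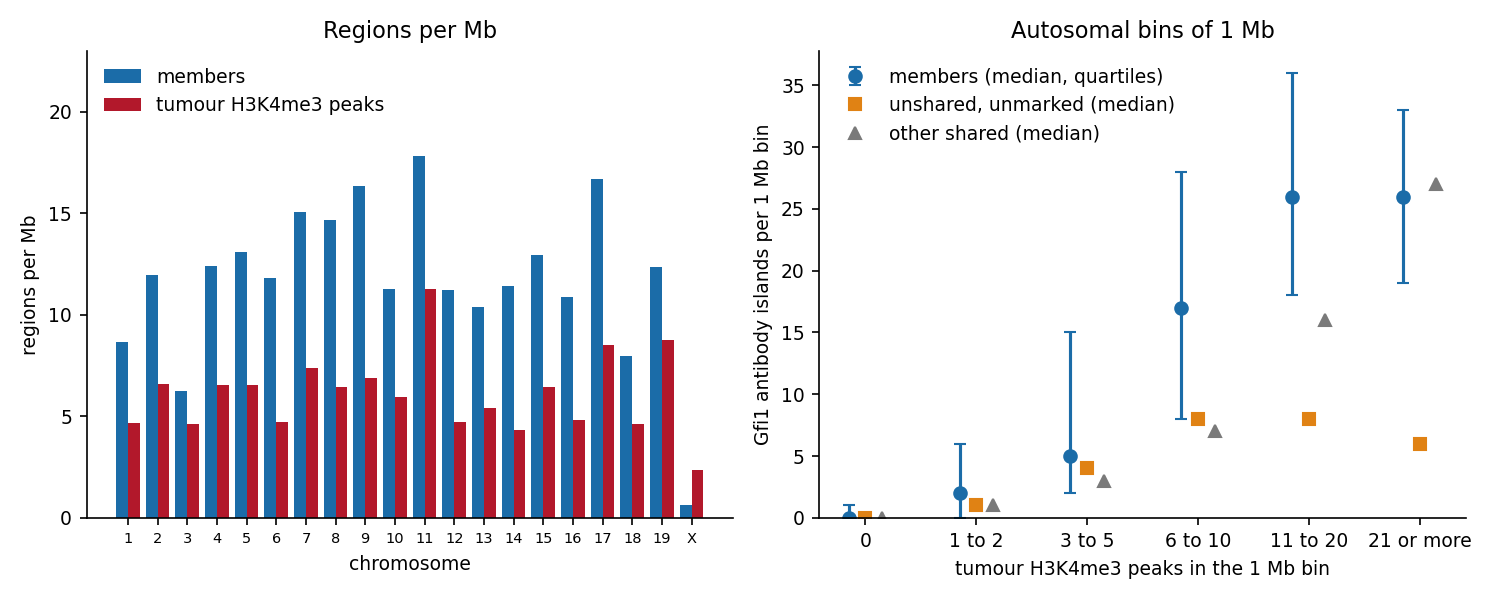
Left, members and tumour H3K4me3 peaks (both lines joined) per Mb of chromosome, with 0.631 members per Mb on X. Right, members (median and quartiles), unshared unmarked islands and other shared islands (medians) per autosomal bin of 1 Mb, by number of tumour H3K4me3 peaks in the bin; members level off at a median of 26.

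Chromosomes differed in how many members they held, and X stood lowest. Autosomes held between 6.25 members per Mb, on chromosome 3, and 17.8 per Mb, on chromosome 11. X held 102 members, or 0.631 per Mb. Few islands of any kind were called there, with 3.96 per Mb in NSSuz12F2Gfi1 and 1.65 per Mb in NSCas9Gfi1. Tumour H3K4me3 peaks were at 2.35 per Mb on X, against 4.35 to 11.3 per Mb on the autosomes. Of the 250 shared islands on X, 40.8% (34.9 to 47.0) were members, the lowest share of the 20 chromosomes, while chromosome 14 had the highest, at 70.3% (68.3 to 72.3). Members on X had a median length of 2800 bp (2600 to 3000) and a median score percentile of 25.1 (18.6 to 29.4). On the autosomes the members' median length was 4200 bp and their median percentile 54.1.

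The strongest members were long. The highest score belonged to an island on chromosome 5 from 140517001 to 140610800, which at 93.8 kb was also the longest and ranked 15 in the NSCas9Gfi1 list. It was met by 8 NSSuz12F2Gfi1 islands over 84.2% of its length and lay 67.5 kb from the nearest H3K4me3 peak. Next came chromosome 14 from 70023801 to 70100800, of 77.0 kb, with 62.6% covered and a peak 5.84 kb away. The third lay on chromosome 2 from 27561601 to 27621200 (59.6 kb, 97.0% covered). The fourth lay on chromosome 5 from 134689601 to 134756800 (67.2 kb, 90.8% covered), and the fifth on chromosome 15 from 77589801 to 77651200 (61.4 kb, 95.4% covered). Of these 5, 4 were also among the 5 longest, which took in chromosome 15 from 83486201 to 83547400 (61.2 kb) as well. When islands of each Gfi1 list were merged within 5 kb, none of these members was left, since the merged island around each overlapped a mark or a Cas9 antibody island.

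The 5 members farthest from H3K4me3 measured 1.00 to 4.60 kb. The largest distance was 2910 kb, on chromosome X from 30514001 to 30518600, where the nearest region of any mark lay 5.80 kb away. The next lay on chromosome 14 from 109310201 to 109314400, with the nearest mark of any kind at 2760 kb. Then came chromosome 1 from 148343801 to 148346000, at 2493 kb, again from any mark. The remaining pair lay on chromosome 6 from 103796601 to 103797800, at 2469 kb, and, at 2375 kb, on chromosome 15 from 22965601 to 22966600. NSSuz12F2Gfi1 covered 2 of the 5 whole.

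At the edges of the rule, 69 members touched a mark region without sharing a base, and 683 lay within 1 kb of one. The first of those that touched was on chromosome 1 from 4677001 to 4680800, with a score of 143, and the next, with a score of 139, began at 36663801 and ended at 36667000. Just outside were shared islands on chromosome 2 from 157250601 to 157262800, which shared 33 bp with a mark and scored 636, and on chromosome 10 from 6011801 to 6014800, with 50 bp and a score of 114. Members sharing 200 bp, 1 window, or less with NSSuz12F2Gfi1 numbered 90. Among them were chromosome 1 from 84874201 to 84878600 and from 91331801 to 91338400, of which 4.55% and 3.03% were covered, with scores of 116 and 218.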

How the data were processed

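The authors deposited 11 lists of enriched regions, 1 for each of 11 among 14 ChIP-seq libraries; the 3 inputs were not used here. Build mm9, SICER 1.1, R 2.14.0, SAMtools, Picard and BWA 0.5.9-r26 are named, without role, per the submitters' processing notes. The island lists had a window of 200 bp, a gap of 600 bp and a false discovery rate of 0.00001, per the names of the deposited lists. The deposited files give a score per region, made by the authors and compared here only within 1 list, by rank or per kb; pairs across lists were compared by rank. The H3K27ac and H3K4me3 caller is not given in the sources used. In the island lists 1 bp was added to each end, which is 0-based and inclusive there.

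Overlaps (1 bp), cover, edge-to-edge distances, chains (50 kb) and bins (1 Mb) were computed in Python 3.11.15 (scipy 1.17.1, numpy 2.4.6), with plots from matplotlib 3.10.9. All 30 combinations of list and measure equalled bedtools 2.31.1. As a check of the code alone, regions were planted inside islands of the NSCas9Gfi1 list, and 2000 of 2000 planted overlaps were recovered. No p-value was computed. The members, comparison sets and alternatives were chosen with earlier results of these data known. Named regions were, among members, the 5 highest scores, the 5 longest, the 5 farthest from H3K4me3, the 3 fullest bins and chains, and 2 at each edge of the rule. The tumour lists number their regions, and 1867 numbers were not analysed here, so an island called unmarked may overlap one of those.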

Additional observations from a re-analysis of the deposited data

How the results depend on the processing

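Over 8 alternatives and 9 results, 38 of 72 values stayed within the counting interval of the reported value, or within 1.5 times for a count. Only the distance difference and the fall in the shared share, both given below, could change sign, and neither did. In the order member share, median length, score percentile, gap and distance to H3K4me3, the reported values are 61.0%, 4200 bp, 53.7, 12.4 kb and 41.2 kb. With 50% of the island covered they were 59.2%, 4000 bp, 52.3, 16.4 kb and 40.1 kb, and the distance difference between members and unshared islands, -24.2 kb as reported, was -19.8 kb. With no mark within 5 kb, the share was 50.7%, the gap 14.6 kb, the distance 46.3 kb and the marked partners 0.860%. With members chosen by marks of the Cas9 tumour line alone these 4 were 63.6%, 11.8 kb, 42.4 kb and 6.82%. Distance and marked partners were still counted over the lists of both tumour lines in that setting. Without the Cas9 antibody filter the share was 62.2% and the gap 11.8 kb. In the upper 50% of scores there were 11877 members, and the 5 values were 50.6%, 7200 bp, 55.6, 20.2 kb and 33.1 kb. Marked partners were then 5.24%, the distance difference was -18.6 kb, and the shared share fell by 23.5 points between islands under 10 kb and those 100 kb or more from H3K4me3, against 18.6 points as reported. With islands merged within 5 kb there were 12206 members, and the 5 values were 51.4%, 5000 bp, 52.3, 51.0 kb and 59.5 kb. Marked partners were then 4.71%, the distance difference was -28.3 kb and the fall in the shared share 14.5 points. Fewer and longer islands follow from the construction of these last 2 settings. Their percentiles, 55.6 and 52.3, are ranks within the cut or merged list and cannot be set against 53.7. A wider or narrower filter on marks or Cas9 antibody islands moves the member share in a fixed direction. The 5 kb margin also removes every member nearer than 5 kb to an H3K4me3 peak. For the remaining changes the cause was not tested. Autosomes alone and islands of at least 1 kb left all 9 results within their intervals. No paired analysis was possible because each group held 1 library.

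The marks come from tumour cells and the Gfi1 antibody islands from neurospheres, so an unmarked island is unmarked only in the tumour lists. Depth is unknown for every library. From these lists, specific and unspecific signal of the Gfi1 antibody in the members cannot be told apart.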
